A study of Mus musculus with 8 samples.

Results

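The autophagy core genes are 10 mouse genes of the machinery that builds the autophagosome, taken by name from a table of 21959 genes. All 10 were in the table, and all 10 had enough signal to be tested. They are Ulk1, Becn1, Atg7, Atg3, Atg5, Atg12, Map1lc3a, Map1lc3b, Gabarap and Sqstm1. Their RNA was measured by sequencing in 4 libraries of Rbpms2 knockout oocytes and 4 libraries of wild-type oocytes, all from mouse ovaries at postnatal day 1. The comparison asks how the oocyte transcriptome differs when Rbpms2 is removed. Rbpms2 encodes an RNA-binding protein. Ovaries of both genotypes were dissociated with collagenase at 2 mg/ml and then trypsin at 0.25%, and each library came from 1 tube of 5 to 10 hand-picked putative primordial oocytes whose mRNA was amplified for 18 cycles. The labels give no strain and do not state which part of Rbpms2 was removed. Whether the tubes hold oocytes of different animals is not labelled either, so the p-values below cover differences among tubes that may be purely technical. Values are FPKM, fragments scaled by the depth of the library and by the length of all annotated exons of a gene together. Where that length exceeds the transcript, the level of a gene is scaled down relative to other genes, whereas its fold change between genotypes keeps the same length on both sides.

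Autophagy encloses cytoplasm in a double membrane and delivers it to the lysosome. A kinase complex and a lipid kinase complex start the membrane, a pair of ubiquitin-like conjugation systems attaches ATG8 proteins to it, and receptors bring cargo to the attached ATG8 proteins. Mouse ovaries that lack Atg7 or have reduced Becn1 are known to hold fewer germ cells around birth.

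The 3 ATG8 genes among the members are related in sequence, and reads of close relatives can be assigned to the wrong gene, so the end of each coding sequence is printed here. Each line holds 45 coding bases that end with the codon for the glycine at which ATG4 proteases cut the protein before it is joined to lipid, which is codon 120, 120 and 116 in the order printed. Capitals mark bases that differ from Map1lc3a. The sequences are those of GENCODE M21 transcripts on GRCm38, on the coding strand.
Map1lc3a: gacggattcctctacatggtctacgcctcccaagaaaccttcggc
Map1lc3b: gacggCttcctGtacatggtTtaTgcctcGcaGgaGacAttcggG
Gabarap: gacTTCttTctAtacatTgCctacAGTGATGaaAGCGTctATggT
Map1lc3b differed from Map1lc3a at 9 of these bases and Gabarap at 22. Over the first 120 codons Map1lc3a and Map1lc3b shared 275 of 360 bases (76.4%), and 60 of the 85 differences lay at the third base of a codon. No stretch of 50 bases was shared between the main transcript of Map1lc3a or Gabarap and the transcripts of any other gene. In the main transcript of Map1lc3b 13.8% of such stretches also occurred in transcripts of other genes, so its level is less certain than those of Map1lc3a and Gabarap. Exons outside the main transcripts, which also count towards FPKM, were not checked.

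Between 9554049 and 14526290 reads per knockout library and between 8310403 and 11926442 reads per wild-type library fell in the listed genes. Rbpms2 itself had 38.4, 58.3, 31.0 and 42.5 FPKM in the 4 knockout libraries, against 158, 167, 136 and 213 FPKM in the 4 wild-type libraries (limma adjusted p = 7.26e-05). The RNA left in knockout libraries may come from parts of the gene that were not deleted, which the labels do not state. All 12 oocyte markers examined were detected well enough to be tested, and their summed level was 2304 to 3796 FPKM in knockout and 5575 to 8590 FPKM in wild-type libraries, with 4 markers called higher and 8 lower. Markers of other ovarian cells were unevenly spread. The summed level of 10 granulosa markers ran from 9.51 to 342 FPKM in knockout and from 2.07 to 42.2 FPKM in wild type, with 1 of 8 tested called higher. For 9 stroma markers it ran from 8.12 to 336 FPKM in knockout and from 3.56 to 77.5 FPKM in wild type, and for 10 immune markers from 17.4 to 449 FPKM in knockout and from 7.05 to 24.1 FPKM in wild type, with 2 of 6 tested called higher and C1qa at 0 in every wild-type library. None of the 9 stroma, 5 erythroid and 1 endothelial markers tested was called, by limma, by limma-voom or at an unadjusted p under 0.05. The summed level of 6 erythroid markers ran from 99.6 to 3212 FPKM in knockout and from 11.9 to 5354 FPKM in wild type, and that of 5 mesothelial markers from 2.60 to 68.9 FPKM in knockout and from 4.93 to 21.4 FPKM in wild type, with 1 of 2 tested called lower. Knockout replicates 2 and 3 and wild-type replicate 3 carried the most granulosa and stroma RNA of their genotypes, and knockout replicate 1 the most endothelial RNA, at 297 FPKM against 1.55 to 6.0 FPKM in the other libraries. The part of these cells in the results was not tested, and for the core genes and pathway lists values without knockout replicates 2 and 3 and wild-type replicate 3 are given where a call or a direction changed or a count of calls moved by more than 1.5 times. Below, these 3 libraries are called rich in somatic markers for their granulosa and stroma RNA only. The fit without them compares knockout replicates 1 and 4 with wild-type replicates 1, 2 and 4. It thus keeps the endothelial RNA of knockout replicate 1 and the erythroid RNA of wild-type replicate 1, at 4211 FPKM.

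In wild-type oocytes the ATG8 genes Map1lc3a and Gabarap were the most abundant of the 10, at 159 ± 22.1 and 112 ± 26.8 FPKM (SD, n = 4), above 97.0% and 95.7% of tested genes. Next came Atg5, Atg12, Sqstm1, Map1lc3b, Atg3, Ulk1 and Becn1, and Atg7 was lowest at 5.89 ± 1.32 FPKM (SD, n = 4). Gabarap did not overlap with Atg5 in the wild-type libraries, nor Atg5 with Atg12, and the other neighbours in this order overlapped. In knockout oocytes the order began with Sqstm1 at 79.2 ± 21.1 FPKM (SD, n = 4) and ended with Ulk1 at 3.60 ± 1.28 FPKM and Atg7 at 2.42 ± 0.774 FPKM (SD, n = 4 each). Between these stood Map1lc3a, Gabarap, Atg5, Atg12, Map1lc3b, Atg3 and Becn1, and neighbours overlapped except Map1lc3b with Atg3 and Becn1 with Ulk1. Sqstm1 thus ranked 1 in knockout and 5 in wild type, and Ulk1 ranked 9 in knockout and 8 in wild type. The order depends on the length used. The exons of Map1lc3b together are 2.97 times as long as its main transcript, against 1.06 times for Map1lc3a and 1.0 for Atg5. Per length of the main transcript Map1lc3b ranked 4 in knockout and 3 in wild type, Sqstm1 1 in knockout and 6 in wild type, and Ulk1 10 in knockout and 8 in wild type.

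**Figure D1:**
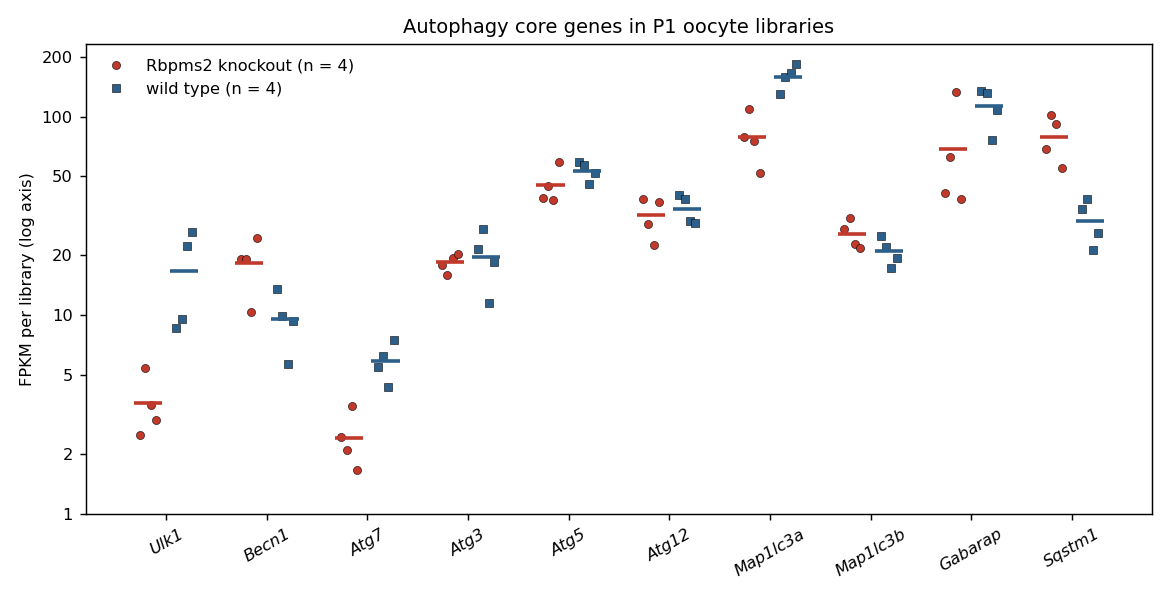
FPKM of the 10 genes in each library on a log axis, with knockout libraries as red circles left of wild-type libraries as blue squares, and a bar at each group's mean (n = 4 each). The knockout libraries lie below all wild-type libraries for Ulk1, Atg7 and Map1lc3a and above them for Sqstm1.

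Of the 10 genes, 2 were called higher in knockout (Becn1 and Sqstm1), 3 were called lower (Ulk1, Atg7 and Map1lc3a) and 5 were not called, by limma on log2(FPKM + 1) with a Benjamini-Hochberg adjusted p under 0.05 over 11235 tested genes. Among all tested genes 43.4% were called, 17.7% higher and 25.6% lower, so 5 calls among 10 genes is a share near that of the whole table and not a result about autophagy genes. Knockout and wild-type values were fully separated for 1 gene in the higher direction and 3 in the lower, whereas 39.9% of tested genes were so separated, 15.9% in the higher direction and 24% in the lower. The median log2 fold change of the 10 genes was -0.19, beside -0.12 over all tested genes. These are amounts of RNA in a tube of several cells, in which fewer cells with a transcript and less transcript per cell cannot be told apart. Protein levels and autophagic flux were not measured.

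Ulk1, the kinase that starts autophagosome formation, was lower in knockout. The gene (ENSMUSG00000029512) lies on chromosome 5 from 110784488 to 110810097 (minus strand, GRCm38). The knockout libraries had 2.49, 5.42, 3.52 and 2.98 FPKM, against 8.62, 9.53, 22.2 and 26.2 FPKM in the wild-type libraries. Every knockout library was below every wild-type library, and among wild-type libraries replicates 3 and 4 were the highest. The mean was 4.62-fold lower in knockout, at 3.60 ± 1.28 FPKM against 16.6 ± 8.90 FPKM in wild type (SD, n = 4 each). Ulk1 changed by -1.83 on the log2 scale, SE 0.38 (95% interval -2.66 to -0.99, limma adjusted p = 0.00290), and the exact two-sided permutation p was 0.0286, the smallest that 4 against 4 libraries allow. Ulk1 was called under all 22 other settings tried. Its transcript has a GC content of 58.0%, and after the trend of each library with GC content was removed (GC correction) the log2 fold change was -1.10 (limma adjusted p = 0.0276).

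Becn1 encodes Beclin 1, the scaffold of the lipid kinase complex that makes phosphatidylinositol 3-phosphate on the growing membrane. The gene (ENSMUSG00000035086) lies on chromosome 11 from 101285952 to 101302286 (minus strand, GRCm38). Becn1 had 19.2, 19.2, 10.4 and 24.5 FPKM in knockout libraries, against 13.5, 9.93, 5.68 and 9.37 FPKM in wild-type libraries. Knockout replicate 3 was below wild-type replicate 1, so the genotypes overlapped. The mean was 1.91-fold higher in knockout, at 18.3 ± 5.84 FPKM against 9.62 ± 3.20 FPKM in wild type (SD, n = 4 each), a log2 fold change of 0.86 with an SE of 0.31 (95% interval 0.17 to 1.55, limma adjusted p = 0.0451, exact permutation p = 0.0571). The call was lost under 10 of the 22 other settings, among them a correction for GC content (limma adjusted p = 0.144) and, among single libraries, the removal of knockout replicate 1, 2 or 4 and of wild-type replicate 2, 3 or 4, with log2 fold changes of 0.65 to 0.89 and adjusted p of 0.0778 to 0.113.

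The count of Becn1 is also uncertain because of its neighbour. On the annotation, 3104 bases or 43.9% of Becn1 exon sequence lies opposite exons of Cntd1, a gene of meiotic crossover formation, and the sources used here do not say whether reads were counted by strand. Cntd1 had 7.02, 5.68, 4.86 and 9.01 FPKM in knockout, against 0.758, 0.774, 0.563 and 0.625 FPKM in wild type. It met the filter of 1 FPKM in 4 libraries only through its knockout libraries, so its levels are given as a description with no test. In reads, Becn1 averaged 1524 in knockout and 682 in wild-type libraries, a difference of 842, while Cntd1 averaged 341 in knockout and 29.5 in wild-type libraries, a difference of 312. Reads from the shared bases cannot be told apart here.

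Atg7, the activating enzyme for both ATG12 and the ATG8 proteins, was lower in knockout and was the member with the fewest reads. The gene (ENSMUSG00000030314) lies on chromosome 6 from 114643097 to 114860614 (plus strand, GRCm38). Knockout libraries had 2.43, 2.10, 3.48 and 1.67 FPKM from 111 to 289 reads, against 5.48, 6.21, 4.35 and 7.50 FPKM from 256 to 456 reads in wild-type libraries. The genotypes did not overlap. The mean of Atg7 was 2.43-fold lower in knockout, at 2.42 ± 0.774 FPKM against 5.89 ± 1.32 FPKM in wild type (SD, n = 4 each), a log2 fold change of -1.02 with an SE of 0.28 (limma adjusted p = 0.0126, exact permutation p = 0.0286). After the GC correction it was -0.58 and no longer called (limma adjusted p = 0.0974).

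The other members of the conjugation systems were not called. Atg3 (ENSMUSG00000022663, chromosome 16, 45158785 to 45188538, plus strand), the enzyme that passes ATG8 proteins on to lipid, had 17.8, 16.0, 19.5 and 20.4 FPKM in knockout, against 21.5, 27.1, 11.5 and 18.6 FPKM in wild type. All its knockout values lay inside the wild-type range, and the log2 fold change was -0.04 (95% interval -0.60 to 0.53, limma adjusted p = 0.919). Atg5 (ENSMUSG00000038160, chromosome 10, 44268358 to 44364291, plus strand), the acceptor of ATG12, had 38.9, 44.9, 38.2 and 59.0 FPKM in knockout, against 58.9, 56.9, 45.6 and 52.0 FPKM in wild type. Knockout replicate 4 was as high as the highest wild-type library and the others were below the lowest, and the log2 fold change was -0.25 (95% interval -0.68 to 0.18, limma adjusted p = 0.319). Atg12 (ENSMUSG00000032905, chromosome 18, 46730144 to 46741580, minus strand), the ubiquitin-like protein joined to ATG5, had 38.5, 28.9, 22.5 and 37.3 FPKM in knockout, against 40.1, 38.6, 29.8 and 29.2 FPKM in wild type. Its genotypes overlapped, with a log2 fold change of -0.13 (95% interval -0.62 to 0.37, limma adjusted p = 0.671). The intervals of all 3 genes allow decreases of more than 1.5-fold, so equal levels are not shown. Atg3 and Atg12 took the opposite sign under median-of-ratios scaling, at 0.11 and 0.03. Atg12 also did so without the 3 libraries rich in somatic markers, at 0.09, and without knockout replicate 3, at 0.02. Atg3 did so with quantile normalization, at 0.06, and without knockout replicate 2 or wild-type replicate 1 or 2, at 0.02 to 0.13. Atg16l1, whose protein binds the joined ATG12 and ATG5, had 3.80 ± 1.35 FPKM in knockout and 5.44 ± 1.11 FPKM in wild type (SD, n = 4 each, limma adjusted p = 0.226).

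Map1lc3a encodes LC3A, which becomes attached to the autophagosome membrane, and was lower in knockout. The gene (ENSMUSG00000027602) lies on chromosome 2 from 155276297 to 155278073 (plus strand, GRCm38). The knockout libraries had 78.9, 109, 75.1 and 52.2 FPKM, against 130.1, 157, 165 and 183 FPKM in the wild-type libraries. Every knockout library was below every wild-type library, and the mean was 2.02-fold lower, at 78.9 ± 23.5 FPKM against 159 ± 22.1 FPKM in wild type (SD, n = 4 each). Map1lc3a changed by -1.04 on the log2 scale, SE 0.23 (limma adjusted p = 0.00389, exact permutation p = 0.0286). Its transcript has the highest GC content of the 10 genes, 63.1%, and after the GC correction the log2 fold change was -0.10 (limma adjusted p = 0.715) and no longer called.

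Its paralog Map1lc3b (ENSMUSG00000031812, chromosome 8, 121590361 to 121598760, plus strand), which encodes LC3B, was not called. It had 27.1, 30.8, 22.9 and 21.8 FPKM in knockout, against 24.9, 22.2, 17.3 and 19.3 FPKM in wild type. The genotypes overlapped, and the log2 fold change was 0.28 (95% interval -0.17 to 0.73, limma adjusted p = 0.284). With the GC trend removed it was 0.68 and called higher (limma adjusted p = 0.0272).

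Gabarap (ENSMUSG00000018567, chromosome 11, 69991143 to 69994951, plus strand) belongs to the other branch of the ATG8 family. It had 41.2, 62.4, 132 and 38.7 FPKM in knockout, against 134, 132, 76.3 and 108 FPKM in wild type. Knockout replicates 1, 2 and 4 lay below all wild-type libraries, whereas knockout replicate 3 matched the highest of them. The log2 fold change of Gabarap was -0.85 (95% interval -1.65 to -0.06), which did not pass the test (limma adjusted p = 0.0771, exact permutation p = 0.143). Without knockout replicate 3, the library with the highest summed granulosa, stroma and immune markers, it was -1.23 and called (limma adjusted p = 0.00316), and without the 3 libraries rich in somatic markers it was -1.61 (limma adjusted p = 0.000558). With libraries weighted by their quality it was -1.14 (limma adjusted p = 0.00790).

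Sqstm1 encodes p62, the receptor that binds ubiquitinated cargo and LC3 at once, and was higher in knockout. The gene (ENSMUSG00000015837) lies on chromosome 11 from 50199366 to 50210827 (minus strand, GRCm38). The knockout libraries had 69.0, 102, 91.2 and 55.0 FPKM, against 34.1, 38.5, 21.2 and 26.0 FPKM in the wild-type libraries. The lowest knockout library was above the highest wild-type library. The mean of Sqstm1 was 2.64-fold higher in knockout, at 79.2 ± 21.1 FPKM against 29.9 ± 7.78 FPKM in wild type (SD, n = 4 each), a log2 fold change of 1.37 with an SE of 0.25 (95% interval 0.81 to 1.93, limma adjusted p = 0.00150, exact permutation p = 0.0286). It was called under all 22 other settings, with its lowest value, 0.90, without the 3 libraries rich in somatic markers (limma adjusted p = 0.0169). Of its exon sequence 17.3% lies opposite exons of Mrnip, which was lower in knockout (log2 fold change -1.55, limma adjusted p = 0.00302).

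**Figure D2:**
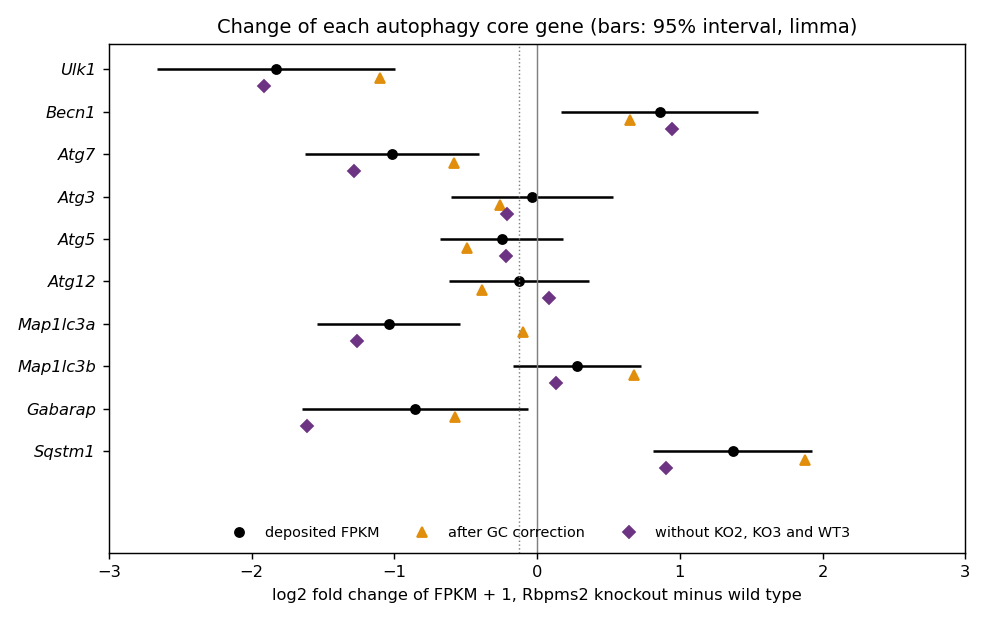
Log2 fold change of FPKM + 1, knockout minus wild type, for each gene, with black points and 95% intervals from limma on the deposited values, orange triangles after GC correction and purple diamonds without knockout replicates 2 and 3 and wild-type replicate 3. The dotted line marks the median of all tested genes, -0.12. Map1lc3a moves from -1.04 to -0.10 with the GC correction, and Gabarap from -0.85 to -1.61 without the 3 libraries.

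The balance within pairs of genes that act together was compared as the log2 ratio of their FPKM + 1 in each library, in which the scaling of a library largely cancels. Of 5 pairs compared, 3 differed between genotypes by an exact two-sided permutation test with adjustment over the 5. Map1lc3a over Map1lc3b was 1.55 ± 0.25 in knockout and 2.87 ± 0.40 in wild type (SD, n = 4 each), a difference of -1.32 (exact p = 0.0286, adjusted p = 0.0476). Atg3 over Atg7 was 2.53 ± 0.34 in knockout and 1.55 ± 0.39 in wild type (SD, n = 4 each), a difference of 0.98 (exact p = 0.0286, adjusted p = 0.0476). Sqstm1 over Map1lc3b, the receptor against one of the proteins it binds, was 1.56 ± 0.31 in knockout and 0.47 ± 0.21 in wild type (SD, n = 4 each), a difference of 1.09 (exact p = 0.0286, adjusted p = 0.0476). In these 3 pairs no knockout library overlapped with a wild-type library. Each pair sets a gene called and fully separated by itself (Map1lc3a, Atg7 or Sqstm1) against one not called. The ratios are thus not evidence apart from those calls. Among all tested genes 39.9% were fully separated between genotypes, and the share over all possible ratios was not computed. Gabarap over Map1lc3b differed by -1.13 (exact p = 0.114, adjusted p = 0.143) and Atg12 over Atg5, whose products are joined to each other, by 0.12 (exact p = 0.743, adjusted p = 0.743). The exact p of 0.0286 is the smallest possible, so the adjusted p depends on how many of the 5 pairs reach it together. After the GC correction no pair passed with adjustment, because Atg3 over Atg7 no longer reached it, while the other 2 did. Map1lc3a over Map1lc3b then differed by -0.78 and Sqstm1 over Map1lc3b by 1.20 (exact p = 0.0286 and adjusted p = 0.0714 for each), and Atg3 over Atg7 by 0.32 (exact p = 0.171, adjusted p = 0.214).

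Summed over the 5 ATG8 genes in the table, the level was 213, 253, 304 and 162 FPKM in knockout, against 356, 364, 302 and 348 FPKM in wild type. Knockout replicate 3 was just above wild-type replicate 3, and the other knockout libraries were below all wild-type libraries. Map1lc3a made up 34.3 ± 7.86% of that sum in knockout and 46.8 ± 8.48% in wild type (SD, n = 4 each). Map1lc3b made up 11.5 ± 2.67% in knockout and 6.09 ± 0.647% in wild type, and Gabarap 27.9 ± 10.7% in knockout and 32.5 ± 5.59% in wild type (SD, n = 4 each). Per length of the main transcript Map1lc3a made up 25.3 ± 5.76% in knockout and 37.8 ± 7.75% in wild type, and Map1lc3b 23.6 ± 5.08% in knockout and 13.7 ± 1.09% in wild type (SD, n = 4 each). Gabarapl1, a paralog of Gabarap, had 9.09 ± 6.83 FPKM in knockout and 3.28 ± 1.96 FPKM in wild type (SD, n = 4 each, limma adjusted p = 0.0966), and its log2 fold change of 1.12 was 0.23 without the 3 libraries rich in somatic markers. Gabarapl1 was called higher after the GC correction (1.53, limma adjusted p = 0.0265), with quantile normalization (1.47, limma adjusted p = 0.0352) and without knockout replicate 4 (1.52, limma adjusted p = 0.0234). Gabarapl2, another paralog, had 50.6 ± 7.04 FPKM in knockout and 46.7 ± 11.5 FPKM in wild type (SD, n = 4 each, limma adjusted p = 0.631).

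**Figure D3:**
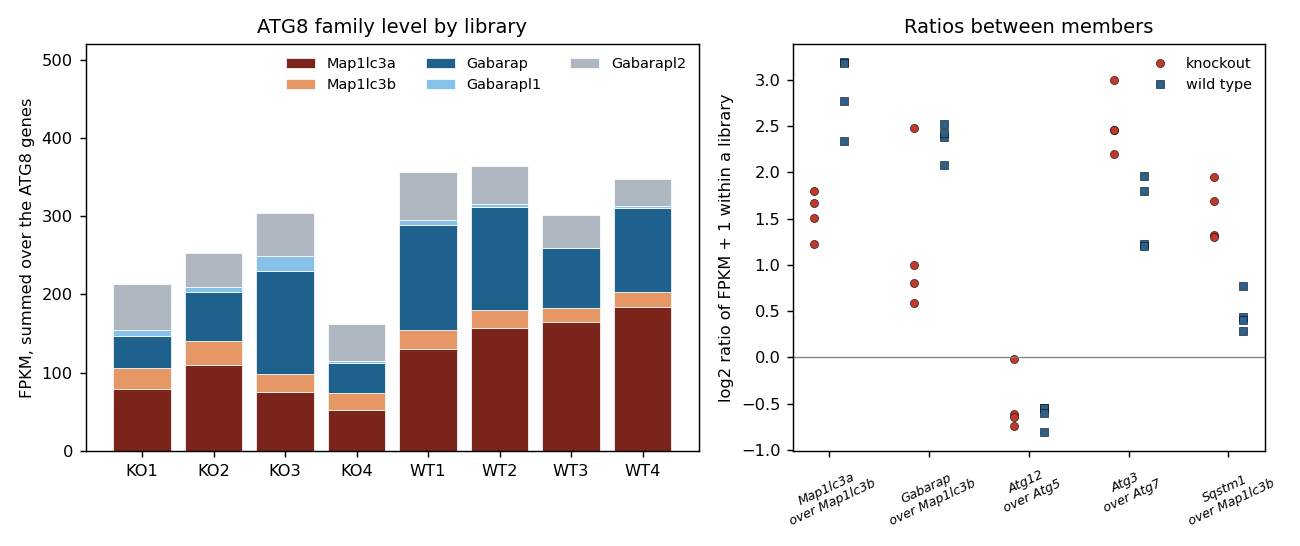
Left, FPKM of the 5 ATG8 genes stacked for each library, knockout replicates (KO1 to KO4) before wild-type replicates (WT1 to WT4), with sums of 162 to 304 FPKM in knockout and 302 to 364 FPKM in wild type. Right, log2 ratios of FPKM + 1 within each library for 5 pairs, knockout as red circles and wild type as blue squares; Map1lc3a over Map1lc3b lies at 1.23 to 1.80 in knockout and at 2.34 to 3.19 in wild type.

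The 10 genes were set beside 10 lists of the wider pathway, which hold 115 tested genes including them. Of these 115, 18 were called higher and 28 lower in knockout, or 40.0%, a share near the 43.4% of all tested genes. The split was 24 higher and 24 lower with median-of-ratios scaling, 26 higher and 22 lower with quantile normalization, and 19 higher and 16 lower after the GC correction. The median log2 fold change was -0.23, beside -0.12 for all tested genes. That of all tested genes was 0.01, 0.04 and 0.03 with those 3 settings, so log2 changes printed here are relative to a centre that moves with the scaling. The counts for each list below stand beside 17.7% higher and 25.6% lower among all tested genes, and no list was tested as a set.

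Around Ulk1, 5 genes of its complex were tested, with 1 higher and 1 lower. Rb1cc1, which encodes the scaffold FIP200 to which ULK1 binds, was higher, at 14.2 ± 3.42 FPKM in knockout and 5.17 ± 1.74 FPKM in wild type (SD, n = 4 each, log2 fold change 1.31, limma adjusted p = 0.00360). Ulk1 and Rb1cc1 thus moved in opposite directions. After the GC correction Rb1cc1 was just outside the threshold (log2 fold change 0.70, limma adjusted p = 0.0578), and the list had 2 genes higher without knockout replicate 2 and 2 without the 3 libraries rich in somatic markers.

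Around Becn1, 8 genes of the lipid kinase complexes were tested, with 1 higher, Becn1 itself, and 4 lower. Pik3r4, the regulatory subunit, had 8.45 ± 2.43 FPKM in knockout and 17.9 ± 4.18 FPKM in wild type (SD, n = 4 each, log2 fold change -1.02, limma adjusted p = 0.00948). Uvrag, which is found in the endosomal form of the complex, and Rubcn, which restrains it, had log2 fold changes of -0.996 and -1.36 (limma adjusted p of 0.0250 and 0.0140). After the GC correction no gene of this list was called, and without knockout replicate 4 or wild-type replicate 1 there were 2 lower. Uvrag was not called without knockout replicate 2, 3 or 4 or wild-type replicate 1 (log2 fold changes of -0.96 to -0.83, limma adjusted p of 0.0505 to 0.0752). Without the 3 libraries rich in somatic markers 1 gene of the list was lower, and Uvrag and Rubcn, at -0.74 and -1.09, were not called (limma adjusted p of 0.0998 or more).

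Among 10 tested genes of ATG9 and membrane supply, 2 were higher and 1 lower. Vmp1, a lipid scramblase of the endoplasmic reticulum needed for autophagosome formation, had 58.3 ± 8.82 FPKM in knockout and 18.7 ± 3.68 FPKM in wild type (SD, n = 4 each), a log2 fold change of 1.60 (limma adjusted p = 0.000166) that was called under all 22 other settings. Tmem41b, a scramblase of the same kind, had a log2 fold change of 0.94 (limma adjusted p = 0.00810), and Atg2a, which transfers lipid to the growing membrane, of -1.59 (limma adjusted p = 0.00410). The calls of Tmem41b and Atg2a were lost after the GC correction. In the conjugation list Atg7 was the 1 gene called among 11, with 1 gene called higher beside it without knockout replicate 2 and 2 without the 3 libraries rich in somatic markers. In the ATG8 family Map1lc3a, lower, was the 1 gene called among 5 on the deposited values, whereas after the GC correction 2 were called higher, Map1lc3b and Gabarapl1, and 0 lower. Without the 3 libraries 0 were higher and 2 lower, Map1lc3a and Gabarap.

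Beside Sqstm1, 17 cargo receptors were tested in all, with 5 higher and 5 lower. Of the lower ones Ccpg1, a receptor for endoplasmic reticulum, met the filter only through its wild-type libraries. Retreg1, also lower, had 0.206 FPKM in knockout replicate 1 and reached the 4 libraries of the filter only with wild-type ones. Optn, the receptor optineurin, which binds ubiquitin and LC3 as p62 does, was lower, at 3.30 ± 2.26 FPKM in knockout and 13.4 ± 3.10 FPKM in wild type (SD, n = 4 each, log2 fold change -1.87, limma adjusted p = 0.00216). Sec62, a receptor for endoplasmic reticulum, was higher, at 62.5 ± 23.0 FPKM in knockout and 20.9 ± 5.32 FPKM in wild type (SD, n = 4 each, log2 fold change 1.48, limma adjusted p = 0.00309). Fkbp8, a mitochondrial receptor, had a log2 fold change of -1.04 (limma adjusted p = 0.00222) that was -0.11 after the GC correction. Optn and Sec62, like Sqstm1, were called under all 22 other settings, Optn in the direction opposite to Sqstm1.

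At the step of fusion with the lysosome 14 genes were tested, with none called higher and 4 lower by limma. At an unadjusted p under 0.05 there were 3 higher, and limma-voom called 0 higher and 3 lower. With median-of-ratios scaling, and with the replicate block, 2 were higher and 4 lower. Quantile normalization gave 3 higher and 3 lower, and array weights 3 higher and 5 lower. After the GC correction there were 2 higher and 3 lower, and 2 of each with the replicate block added. Epg5, a tether between autophagosome and lysosome, had 2.24 ± 0.885 FPKM in knockout and 8.18 ± 2.22 FPKM in wild type (SD, n = 4 each, log2 fold change -1.51, limma adjusted p = 0.00214). Vps39, a subunit of the HOPS tether, and Plekhm1, an adaptor that binds it, had log2 fold changes of -0.94 and -0.95 (limma adjusted p of 0.00876 and 0.0203). Without the 3 libraries rich in somatic markers this list had 3 higher and 1 lower, and neither Vps39 nor Plekhm1 was called. Plekhm1 was also not called without wild-type replicate 4 (limma adjusted p = 0.0713), when 2 genes were lower, and there were 1 or 2 genes higher without knockout replicate 3 or 4 or wild-type replicate 1.

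Of 17 tested genes for lysosomal enzymes and membrane proteins, 4 were higher and 2 lower. Of the higher ones Lipa met the filter only through its knockout libraries. Its mean was 6.06 FPKM in knockout and 0.580 FPKM in wild type, so its call is not independent of the filter. Lamp2, a major protein of the lysosomal membrane, had 36.6 ± 9.66 FPKM in knockout and 12.3 ± 2.94 FPKM in wild type (SD, n = 4 each, log2 fold change 1.49, limma adjusted p = 0.000890). Ctsl, the protease cathepsin L, had a log2 fold change of 1.55 (limma adjusted p = 0.00106), and Mcoln1, a calcium channel of the lysosome, of -1.36 (limma adjusted p = 0.00252). Without the 3 libraries rich in somatic markers 4 genes of this list were higher and 7 lower, without knockout replicate 3 alone 4 were lower, and without knockout replicate 1 or 4 or wild-type replicate 1 or 4 it was 1. Of 14 vacuolar ATPase genes, which acidify the lysosome, 4 were higher and 1 lower. Atp6v1d and Atp6ap2 had log2 fold changes of 1.32 and 1.07 (limma adjusted p of 0.000880 and 0.00211), and Atp6v1f of -0.68 (limma adjusted p = 0.00595), which was -0.13 after the GC correction. Without the 3 libraries rich in somatic markers 5 were higher and 2 lower.

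Of 14 tested regulators 1 was higher and 8 were lower, beside 17.7% higher and 25.6% lower among all tested genes. The list holds transcription factors of autophagy genes and subunits or activators of AMPK, the kinase that acts on ULK1 when energy is low. It also holds Keap1, which is neither and was not called. Of the lower ones Mitf met the filter only through its wild-type libraries. Its mean was 0.532 FPKM in knockout and 3.50 FPKM in wild type, so its call is not independent of the filter. Prkaa2, Stk11 and Tfe3, also called lower, were below 1 FPKM in some knockout libraries and reached 4 libraries only with wild-type ones. The same limit therefore holds for their calls. In knockout replicate 4 Tfe3 had 0.677 FPKM. Foxo3, a transcription factor known for holding primordial follicles in reserve, had 9.25 ± 5.19 FPKM in knockout and 53.8 ± 8.45 FPKM in wild type (SD, n = 4 each, log2 fold change -2.60, limma adjusted p = 0.000481). Prkab2, a subunit of AMPK, had 6.41 ± 1.36 FPKM in knockout and 18.1 ± 1.21 FPKM in wild type (SD, n = 4 each, log2 fold change -1.38, limma adjusted p = 0.000524). Tfe3, a transcription factor of lysosomal genes, had a log2 fold change of -1.58 (limma adjusted p = 0.00271), and its relative Tfeb was too low to be tested. Foxo3, Prkab2 and Tfe3 were called under every other setting in which they were tested, and 7 genes of the list were called lower after the GC correction. Without knockout replicate 1 or 4 or wild-type replicate 3 the number higher was 2.

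**Figure D4:**
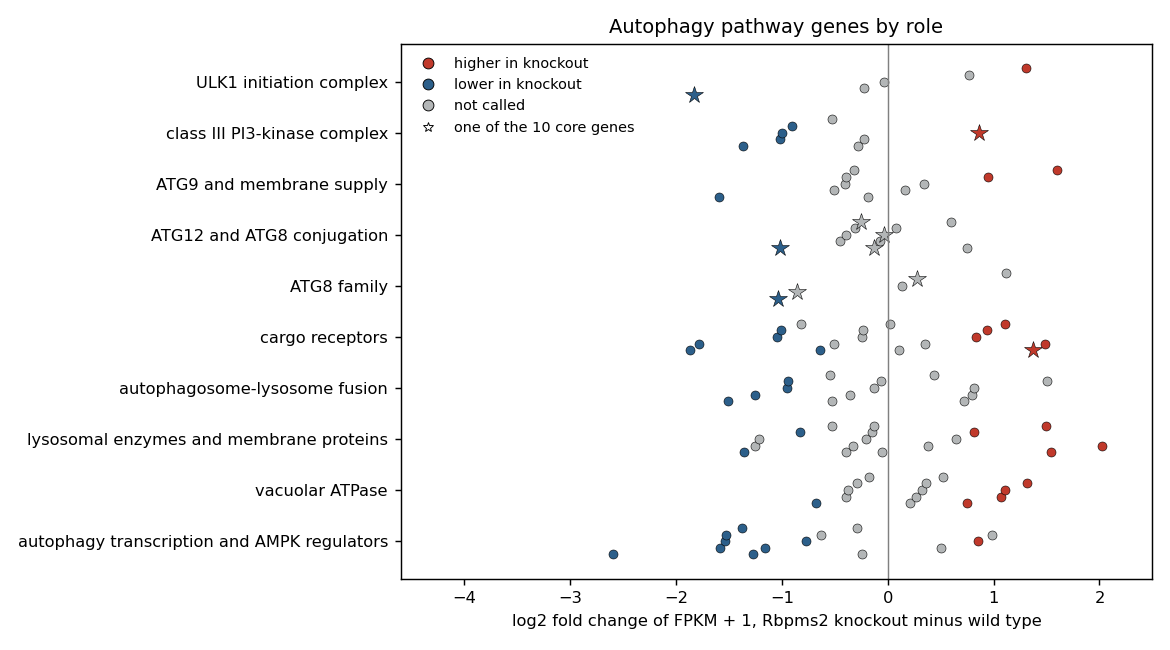
Log2 fold change of FPKM + 1, knockout minus wild type, for the tested genes of 10 autophagy lists in rows by role, with stars for the 10 core genes and circles for the others, red where called higher, blue where called lower and grey where not called (limma adjusted p under 0.05). Called genes lie on both sides of 0 in the cargo receptor row, with 5 higher and 5 lower, and mostly on the lower side in the row of transcription and AMPK regulators, with 1 higher and 8 lower. Among all tested genes 17.7% were called higher and 25.6% lower.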

How the data were processed

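Per the labels, mRNA of hand-picked P1 oocytes was amplified and sequenced in 8 libraries, and the authors deposited 1 table of FPKM per gene and library. Tools named in the submitters' processing notes are cutadapt, HISAT2 and HTSeq, with the genome build GRCm38 (mm10). Of versions, annotation release and use of strand the sources used here say nothing, and the growth protocol speaks of a microarray where the values are those of sequencing. Symbols were matched through GENCODE M21 for 21851 of 21959 genes. Multiplied by exon length, 97.4% to 97.6% of values per library were whole reads within 0.02 reads. The recovered reads served for depth, for a check for duplicated libraries (lowest chi-square per degree of freedom between libraries of a genotype 33.6) and for 1 added limma-voom fit. Reads were amplified without molecular identifiers and are not independent molecules.

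Testing covered genes that reached 1 FPKM in 4 libraries or more, with limma 3.58.1 (R 4.3.3) applied to log2(FPKM + 1), an eBayes trend and no term but genotype. The added 1 shrinks log2 fold changes of low genes, and a value called x-fold is the quotient of the mean FPKM of the genotypes. Single genes and ratios were tested by exact two-sided permutation over 70 splits (Python 3.11.15, scipy 1.17.1). Alternatives were other pseudocounts, filters, scalings, eBayes settings, array weights, a loess GC correction (span 0.5), the replicate number as a block and each library left out. Added after seeing the data were limma-voom, a fit without the 3 libraries rich in somatic markers, the GC correction of the ratios and levels per length of the main transcript (APPRIS principal and CCDS first, then the longest coding one). Besides the 10 core genes, Rbpms2, Gabarapl1, Gabarapl2 and Atg16l1, up to 3 called genes with the smallest p were named per list, and Cntd1 and Mrnip because their exons overlap core genes. Ccpg1, Lipa and Mitf were named because at most 1 library of the genotype with the lower level reached 1 FPKM. Retreg1, Prkaa2 and Stk11 were named because they too reached 4 libraries only with wild-type ones, and Keap1 for its place in a list. The members and lists were chosen with earlier results of these data known. The procedure was tested on simulated data.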

Additional observations from a re-analysis of the deposited data

How the results depend on the processing

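Changes of single genes and counts of calls were recomputed under 22 alternatives and the ratios of gene pairs under 12, and no gene named was called in opposite directions. Atg7, Rubcn and Tfe3 were not tested with a filter at 5 FPKM. Marker sums, Cntd1 and Mrnip were not recomputed, and level order and ATG8 shares only for transcript length. Ccpg1, Lipa, Mitf, Retreg1, Prkaa2, Stk11 and Keap1 were recomputed only within the counts. The count of core genes called higher was 1 with no filter and with eBayes without trend and 1 to 2 with 1 library left out, each time by the loss of Becn1. It stayed at 2 with the GC correction, alone or with the replicate block, where Becn1 was lost and Map1lc3b gained a call. The count called lower was 1 after the GC correction and 1 with the replicate block and GC correction together, against 3 to 4 with 1 library left out. Of the pathway lists, 16 genes were called lower after the GC correction, 18 with the replicate block and GC correction, and 21 to 30 with 1 library left out. The cause was not tested.

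After the GC correction the ratio differences were -0.78 for Map1lc3a over Map1lc3b, 0.32 for Atg3 over Atg7 and 1.20 for Sqstm1 over Map1lc3b, none past the threshold with adjustment. Map1lc3a over Map1lc3b and Sqstm1 over Map1lc3b kept the smallest possible exact p, 0.0286. Their adjusted p rose because Atg3 over Atg7 did not keep it. Sqstm1 over Map1lc3b differed by 0.77 without the 3 libraries rich in somatic markers. With 1 library left out the 3 differences were -1.50 to -1.21, 0.82 to 1.12 and 0.96 to 1.19, and the exact test with adjustment can then no longer pass.

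Correlations of deviations between same-numbered libraries of the genotypes were 0.185, 0.016, 0.361 and -0.053, against -0.341 to 0.33 between libraries of different numbers. That of replicate 3 was the highest of all. Whether same-numbered libraries share an origin cannot be told from these values, and the main fit does not take the numbers as pairs. With the replicate block 2113 genes were called higher and 2921 lower, against 1991 and 2880 without it, and the calls of all 10 core genes were unchanged. Among the core genes Atg7 had the lowest read count, 111 in its shallowest library.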
